A study of Mus musculus with 12 samples.

Results

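The transcriptome of spleen B cells from mice without Fcmr (KO) was compared with that of wild-type (WT) B cells after 6 h of stimulation through the B cell receptor (BCR). All genes were followed in 3 KO and 3 WT libraries of 6 h, which are 6 of the 12 libraries of the series, and the 11841 genes of 55487 that averaged 1 FPKM or more across all 12 libraries were tested. FPKM is the number of sequenced fragments of a gene, scaled by the length of its transcript and by the size of the library. Where 3 values of a genotype are given in a row, they are those of replicates 1, 2 and 3 in that order, and a replicate without a time is one of 6 h. The cells of all groups were labelled naive and were purified from spleen, and all were exposed to anti-IgM F(ab')2 at 10 µg/mL, which joins IgM molecules at the cell surface. The other 6 libraries, 3 of each genotype, were collected after 1 h of the same stimulus and are used below for the test of a difference between the times. None of the 12 libraries came from unstimulated cells. The strain and age of the mice, the way the Fcmr allele was made and the purity of the cells are not given in the sources used here. According to the labels the replicates are biological, but no animals are named, and p-values thus reflect the spread among these libraries.

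Fcmr encodes the Fc receptor for IgM, a membrane protein that binds the constant part of IgM and is found in mice mainly on B cells. Crosslinking of surface IgM activates the kinases Lyn, Syk and Btk, and from there calcium and NFAT, the ERK cascade, and NF-kB through Bcl10 and Malt1. Within hours these pathways raise transcripts for survival, growth, antigen presentation and migration towards the T cell zone. By its title, the series asks whether BCR signalling set off by antigen is reduced in B cells that lack Fcmr.

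The 6 libraries of 6 h held 20676170 to 24058818 fragments, with 20311 to 20902 genes above 0, and for a 2 kb transcript 3 fragments were worth 0.0623 to 0.0725 FPKM. B cell genes were abundant in every library: Cd79a, the gene of a signalling chain of the BCR, measured 215, 219.7 and 198 FPKM in WT libraries and 216, 227 and 236 FPKM in KO libraries. Transcripts of other blood cells were present and uneven. The neutrophil protein gene S100a8 measured 124, 88.7 and 4.97 FPKM in WT libraries and 13.2, 4.85 and 5.05 FPKM in KO libraries, so WT replicate 3 lay with the KO libraries. The summed FPKM of the neutrophil markers was 23.1 to 434 in WT and 19.4 to 54.3 in KO, that of the erythroid markers 412 to 841 and 410.2 to 678, and that of the macrophage markers 340.5 to 513 and 346 to 380.1. No macrophage marker was at 0 in all 6 libraries, whereas the stromal genes Ccl19, Ccl21a and Pdgfra were. On the first principal component of the 6 libraries, with 39.9% of the variance, WT replicate 2 stood apart at -28.59, against -5.63 and 7.35 for WT replicates 1 and 3 and 5.09 to 11.6 for the KO replicates. In such bulk samples fewer cells of a type and less RNA per cell cannot be told apart.

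**Figure D1:**
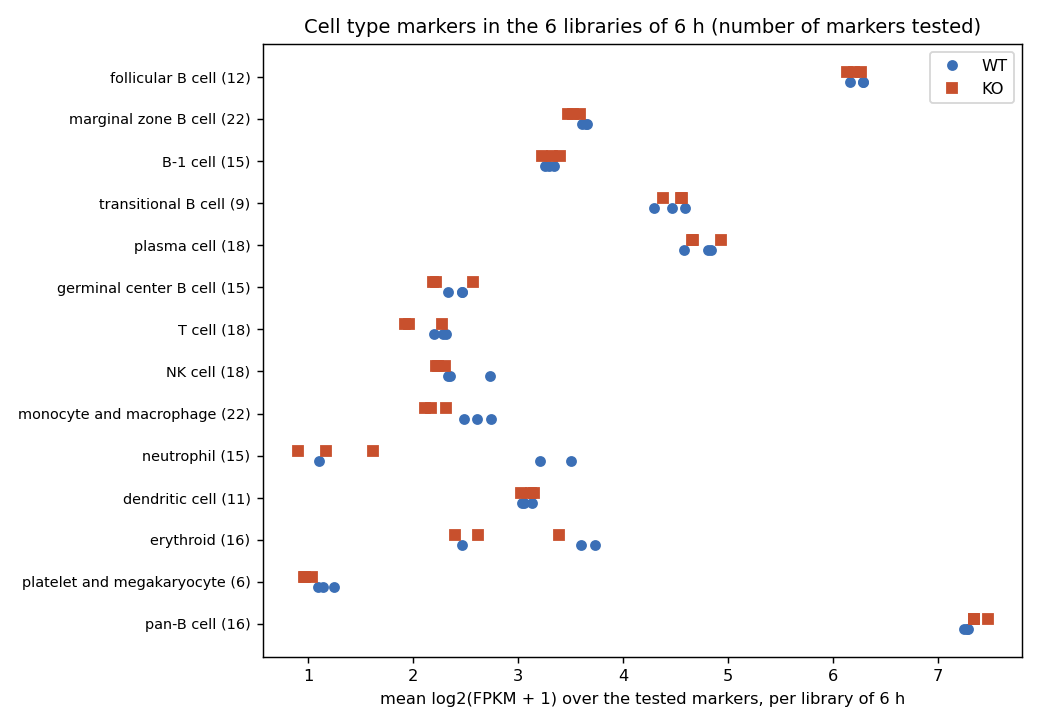
Mean log2(FPKM + 1) over the tested markers of each cell type in each library of 6 h, with WT and KO replicates as separate points. Macrophage markers lie lower in all 3 KO libraries (2.117 to 2.317) than in the WT libraries (2.481 to 2.746), and for neutrophil markers WT replicate 3 (1.109) lies among the KO libraries (0.902 to 1.623).

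After 6 h the genotypes differed in 27 genes (limma on log2(FPKM + 1), adjusted p under 0.05), which is 0.228% of the genes tested. Of these 16 were higher in KO cells (0.135%) and 11 were lower (0.0929%). At an unadjusted p under 0.05, 894 genes differed (7.55%), of which 498 were higher (4.21%) and 396 lower (3.34%), and the median log2 fold change of all genes tested was 0.002, with a median size of 0.065. The differences were mostly small, since by the means in FPKM 10 of the 27 genes changed by 2-fold or more and 10 by less than 1.5-fold (9 and 12 on the log2(FPKM + 1) scale, which understates the change of low genes). In all 27 genes KO and WT libraries were fully separated. The 27 were selected by p from these same libraries, which makes separation likely, so it adds no support to the calls. Of all genes tested 15.1% were separated, 8.1% with all KO libraries above all WT libraries and 6.97% below. Genes with a proper symbol numbered 19, of which 9 were higher and 10 lower in KO cells. The other 8 were 4 immunoglobulin V segments, 3 predicted genes and 1 pseudogene. In what follows a range given for the median of a list is that over the 24 alternatives tried.

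**Figure D2:**
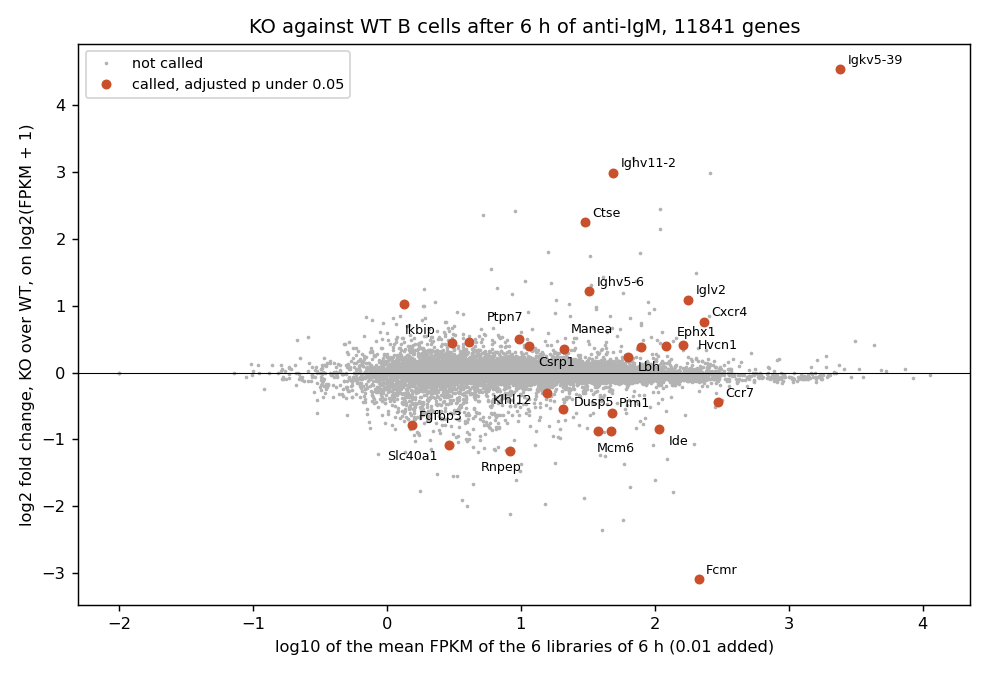
Log2 fold change of KO over WT at 6 h against the mean level in FPKM on a log10 axis, for each of the 11841 genes tested, with the 27 called genes in orange. Called genes are spread over low and high levels, and most of the other genes lie close to a fold change of 0.

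Fcmr itself (ENSMUSG00000042474, chr1:130865669-130880791, mm10, plus strand) measured 368, 401 and 380.2 FPKM in WT libraries and 43.1, 46.4 and 42.6 FPKM in KO libraries. All KO libraries lay far below all WT libraries, at 11.5% of the WT mean (383 ± 16.9 FPKM in WT and 44.1 ± 2.06 FPKM in KO, SD, n = 3 each). The log2 fold change was -3.09 (SE 0.05, limma adjusted p = 1.1e-10). The exact permutation test over these libraries (two-sided) reached p = 0.1, its lowest possible value for 3 against 3. The KO libraries still held 1501 to 1660 fragments of the gene, against 12164 to 14608 in WT, and since fragments were summed per gene their exons are not known.

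Among the genes that respond to BCR stimulation, Pim1, Dusp5 and Ccr7 were lower in KO cells. Pim1 (chr17:29490753-29496112) encodes a serine/threonine kinase that promotes survival and growth of lymphocytes. It measured 60.1, 56.1 and 57.6 FPKM in WT libraries and 35.6, 40.5 and 37.7 FPKM in KO libraries. The lowest WT library lay well above the highest KO library, and the KO mean was 65.5% of WT (log2 fold change -0.60, SE 0.06, limma adjusted p = 0.00301). Its call held in all 24 alternatives tried, with each library left out in turn among them. The related kinase genes Pim2 (15.5, 13.1 and 14.7 against 10.7, 12 and 11.7 FPKM, log2 fold change -0.30, limma adjusted p = 0.282) and Pim3 (-0.15, adjusted p = 0.527) did not pass.

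Dusp5 (chr19:53529109-53542431) encodes a nuclear phosphatase that inactivates ERK and is itself induced by ERK. It measured 24.4, 25.5 and 23.5 FPKM in WT libraries and 15.7, 17.7 and 15.9 FPKM in KO libraries. The groups did not overlap, and the KO mean was 67.1% of WT (log2 fold change -0.55, SE 0.07, limma adjusted p = 0.0101). This call was lost when any of WT replicates 1 and 2 and KO replicates 1 and 3 was left out (adjusted p = 0.0639, 0.0504, 0.0603 and 0.0644) and with the 6 h libraries fitted alone (0.0551). Dusp5 was the called gene of 16 ERK feedback inhibitors, a list of MAP kinase phosphatases, Sprouty family genes and Ras inhibitors whose median was 0.043 (0.010 to 0.095). The only member called therefore lay opposite in sign to most of the list, of which 5 had a negative fold change, among them Dusp16 at -0.14 and Dusp4 at -0.01, while Dusp6 stood at 0.21.

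Ccr7 (chr11:99144196-99155077) encodes the receptor for the chemokines CCL19 and CCL21, which draws activated B cells to the border of the T cell zone. It measured 326, 359.6 and 335 FPKM in WT libraries and 264, 250.0 and 240.1 FPKM in KO libraries. The KO libraries lay below every WT library, at 73.8% of the WT mean (log2 fold change -0.44, SE 0.07, limma adjusted p = 0.0332). This call was close to the threshold: it ended without each of the 6 libraries of 6 h in turn (adjusted p = 0.077 to 0.163) and without WT replicate 1 or KO replicate 1 of 1 h (0.0552 and 0.0702). With the 6 h libraries fitted alone the adjusted p was 0.109. At 1 h the log2 fold change was -0.36 (adjusted p = 0.0537).

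**Figure D3:**
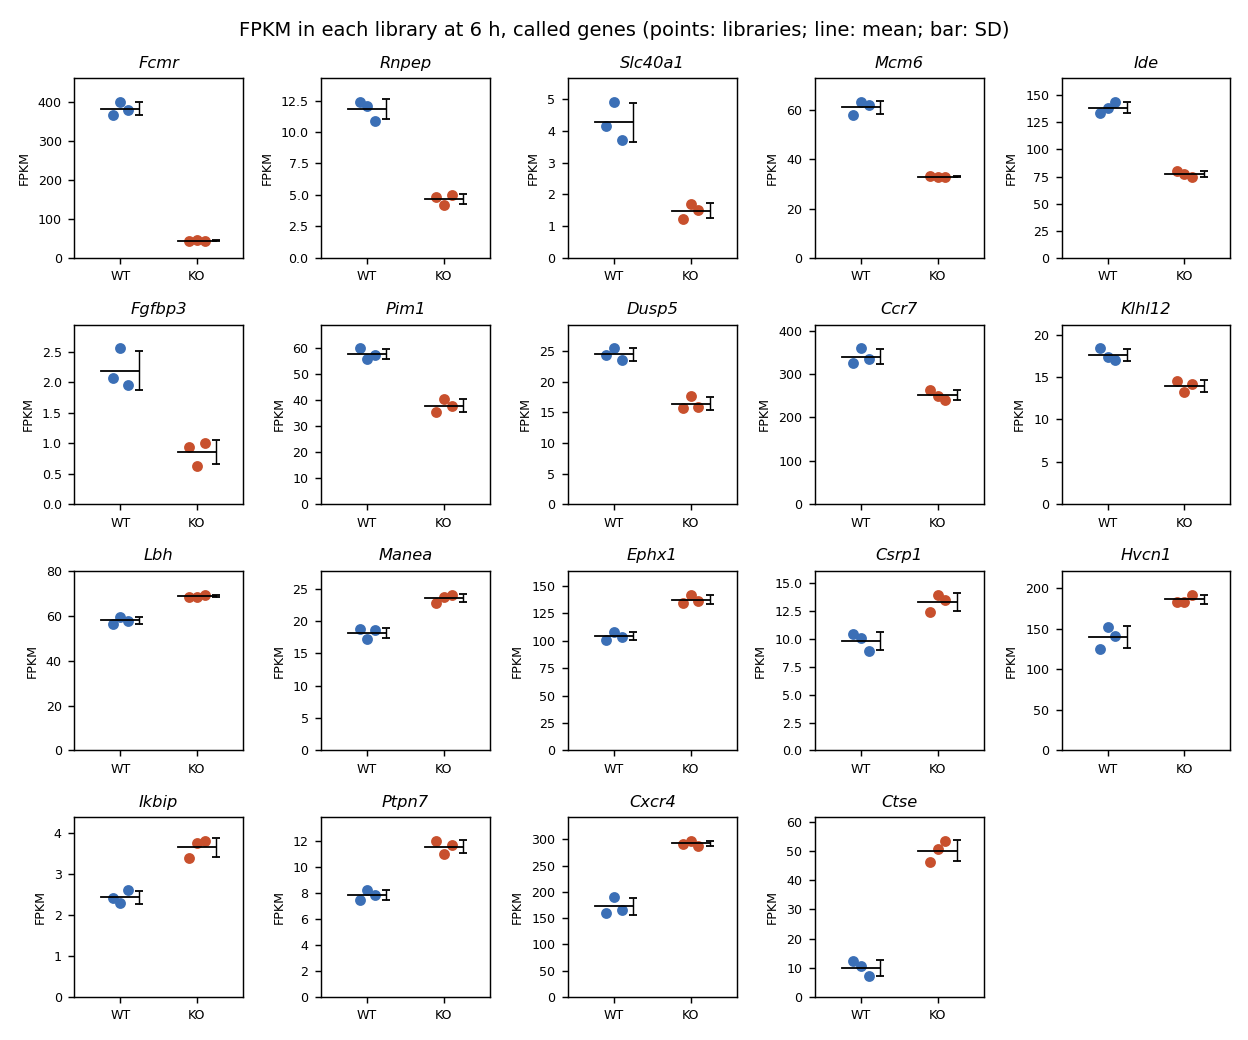
Level in FPKM of the 19 called genes with a proper symbol in each library of 6 h, with the mean as a line and the SD as a bar (n = 3 for each genotype), 1 panel for each gene with an axis from 0. The KO and WT points do not overlap in any panel, from Fcmr at 11.5% of WT to Lbh, whose means differ by 1.19-fold.

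Ccr7 was the called gene of 42 NF-kB target genes, a list of transcripts with known NF-kB control in lymphoid and myeloid cells. Of the 42, 37 had a negative fold change, against 49.3% of all genes tested, and 17 had all KO libraries below all WT libraries, against 6.97% of all genes. At an unadjusted p under 0.05, 14 were lower and 1 was higher, against 3.34% and 4.21% of all genes, and the median log2 fold change was -0.125. The mean log2(FPKM + 1) of the list was 4.936, 4.932 and 4.935 in WT replicates 1, 2 and 3 and 4.720, 4.817 and 4.790 in the KO replicates. The WT libraries were nearly level and all KO libraries lay below them. Macrophage markers, of which 0 are in this list, were also lower in all KO libraries by their list mean (2.117 to 2.317 against 2.481 to 2.746), with 20 of 22 negative and a median of -0.365. Their part in the values of the NF-kB list, which holds genes that myeloid cells also express, was not tested. The median stayed negative in every alternative tried (-0.168 to -0.097), but without KO replicate 1 the number lower at an unadjusted p under 0.05 was 7.

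The members with the smallest p after Ccr7 did not pass over all genes. Nfkbid, which encodes an atypical IkB protein that works with NF-kB in the nucleus, measured 132, 127 and 108 FPKM in WT libraries and 83.4, 93.5 and 88.1 FPKM in KO libraries. Its groups did not overlap (log2 fold change -0.46, limma adjusted p = 0.106), and without WT replicate 3 it was called (-0.55, adjusted p = 0.0492). The chemokine gene Ccl4 was not called with all libraries (-0.39, limma adjusted p = 0.396). It measured 28, 33.1 and 21.5 FPKM in WT and 19.3, 20.6 and 21.7 FPKM in KO, so its groups overlapped. It was called only when WT replicate 3, which lay within the KO range, was left out (-0.55, adjusted p = 0.0304, and 0.0319 without both WT libraries numbered 3). The stress gene Gadd45b stood at 87.8, 94.9 and 76.7 against 61, 65.7 and 59.4 FPKM (-0.47, limma adjusted p = 0.132). Values for the chemokine gene Ccl5 were 28, 29.9 and 33.2 FPKM in WT and 23.8, 23.7 and 23.5 FPKM in KO (-0.34, limma adjusted p = 0.372). Nfkbid, Gadd45b and Ccl5 each had all KO libraries below all WT libraries. The adhesion gene Icam1 had a log2 fold change of -0.22, and Tnfaip3, whose product A20 restrains NF-kB, one of -0.21 (47.9, 42.4 and 47.7 against 37.6, 40.7 and 40.3 FPKM). The one member higher at an unadjusted p under 0.05 was the proteoglycan gene Sdc4, at 20.2, 22.8 and 21.6 FPKM in WT and 24.4, 25.1 and 24.1 FPKM in KO (0.18, limma adjusted p = 0.301). Genes of the NF-kB subunits themselves lay near 0, with Nfkb1 at -0.08, Rela at -0.03, Nfkb2 at -0.01 and Rel at 0.07.

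**Figure D4:**
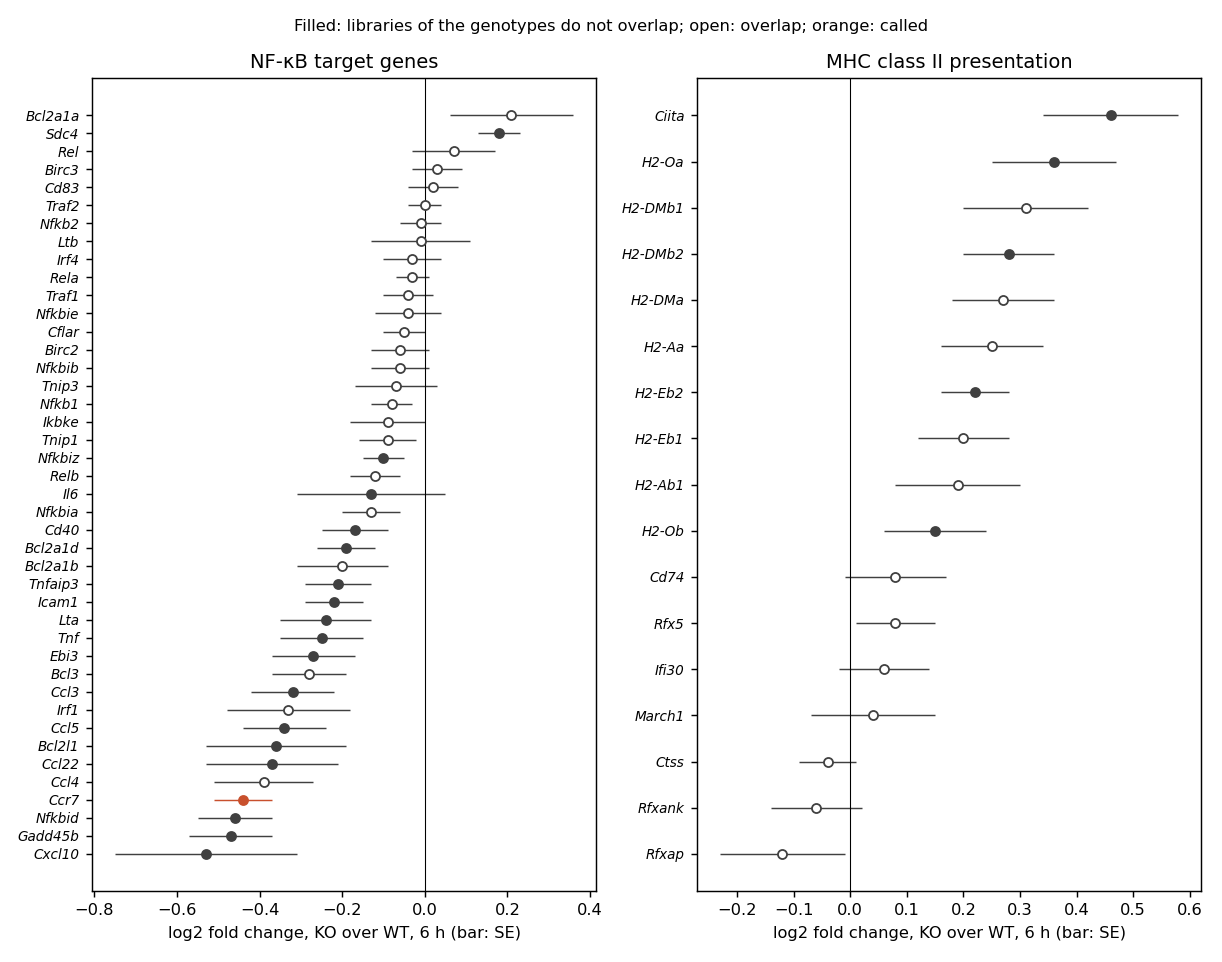
Log2 fold change of KO over WT at 6 h with its SE for the tested NF-kB target genes and MHC class II genes. Filled points mark genes whose KO and WT libraries do not overlap, open points those that overlap, and orange the called gene Ccr7. Most NF-kB target genes lie below 0 (37 of 42), and most MHC class II genes above it (14 of 17).

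The promoters of this list were searched for the kB motif, the decameric site of NF-kB, on both strands in windows from 250 bases before to 50 bases after each start (RefSeq, GRCm38.p6). It occurred in 16 of 34 list genes with an entry (47.1%), against 12% of the 8453 tested genes with an entry and 8.46% of all 32851 promoters. Of the list genes whose KO libraries all lay below the WT libraries it occurred in 6 of 13 (46.2%), about the share of the list. Among the called genes with an entry it occurred in 2 of 8 lower genes (Fcmr and Fgfbp3) and 0 of 9 higher genes. The AP-1 motif TGANTCA occurred in 9 of the 34 list genes (26.5%) and in 5.74% of the tested genes, and in 0 of the called genes. Shown here, 5′ to 3′ with the kB matches in capitals, are the windows of 2 list genes with separated pairs of matches and that of the called gene Fgfbp3. They are Nfkbid (chr7:30422156-30422455, plus strand, matches beginning 226 and 181 bases before the start), Tnfaip3 (chr10:19015361-19015660, minus strand, 125 and 12 bases before the start) and Fgfbp3 (chr19:36919550-36919849, minus strand, 91 bases before the start).
Nfkbid: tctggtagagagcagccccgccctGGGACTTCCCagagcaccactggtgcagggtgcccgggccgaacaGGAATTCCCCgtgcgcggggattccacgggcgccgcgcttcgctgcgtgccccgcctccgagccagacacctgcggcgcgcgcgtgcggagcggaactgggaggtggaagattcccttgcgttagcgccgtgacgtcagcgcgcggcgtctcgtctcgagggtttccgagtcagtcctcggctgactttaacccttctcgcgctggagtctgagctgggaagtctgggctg
Tnfaip3: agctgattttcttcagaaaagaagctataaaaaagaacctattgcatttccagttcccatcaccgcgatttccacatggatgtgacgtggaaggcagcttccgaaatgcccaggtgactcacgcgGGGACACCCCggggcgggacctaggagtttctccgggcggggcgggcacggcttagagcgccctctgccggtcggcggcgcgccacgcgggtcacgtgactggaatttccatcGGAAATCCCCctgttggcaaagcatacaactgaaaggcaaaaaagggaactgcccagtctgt
Fgfbp3: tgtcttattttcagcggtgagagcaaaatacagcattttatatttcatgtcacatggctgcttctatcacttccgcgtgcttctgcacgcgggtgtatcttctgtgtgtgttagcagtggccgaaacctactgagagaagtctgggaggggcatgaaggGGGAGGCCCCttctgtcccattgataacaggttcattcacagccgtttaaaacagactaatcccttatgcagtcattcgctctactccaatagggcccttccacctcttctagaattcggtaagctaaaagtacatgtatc
The Tnfaip3 window also holds an AP-1 match and a match to the E-box motif CACGTG, both left in lower case. A match describes the letters of the window and is not a measured binding site. The promoters of Pim1 and Dusp5 had entries without a kB match in these windows, and Ccr7 had no entry.

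Immediate early genes, the transcription factors and phosphatases induced first after stimulation, gave no further call. Of 39, Dusp5 was lower, 27 had a negative fold change and 7 had all KO libraries below all WT libraries, against 49.3% and 6.97% of all genes tested. The median was -0.042 (-0.054 to -0.022). The AP-1 subunit gene Jun measured 5.07, 5.3 and 5.08 FPKM in WT libraries and 3.7, 3.66 and 4 FPKM in KO libraries (log2 fold change -0.36, limma adjusted p = 0.218). Its libraries did not overlap, and at 1 h its log2 fold change was -0.42. Atf3 had a fold change of -0.34, and Egr2 had all KO libraries above all WT libraries at 0.18. Among 23 NFAT and calcium responsive genes 0 were called, 2 were lower at an unadjusted p under 0.05 (limma, 3.34% of all genes), and the median was 0.023 (0.003 to 0.054).

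Genes of the signalling machinery itself were also not called. Of 36 BCR signalling components 0 were called, 1 was higher and 1 lower at an unadjusted p under 0.05 (limma, 4.21% and 3.34% of all genes), and the median log2 fold change was 0.027 (0.012 to 0.041). The higher one was the PI3-kinase adaptor gene Pik3ap1 (BCAP), at 93.5, 94.5 and 99.1 FPKM in WT libraries and 112, 113 and 116 FPKM in KO libraries (0.25, limma adjusted p = 0.299). Its KO libraries all lay above the WT libraries. KO and WT libraries were separated for 9 of the 36 members, 6 with KO above and 3 with KO below, against 15.1%, 8.1% and 6.97% of all genes. Transcripts of Syk (-0.08), Lyn (0.05), Btk (0.09) and Malt1 (0.09) lay near 0.

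Of 27 inhibitory receptors and phosphatases of the BCR 0 were called, with 5 higher and 2 lower at an unadjusted p under 0.05 (limma, 4.21% and 3.34% of all genes) and a median of 0.035, which became -0.011 without KO replicate 3. The number higher by the unadjusted p was 2 without WT replicate 1 and 3 without KO replicate 3. The lectin gene Cd72, whose product recruits the phosphatase Shp1, measured 246, 267 and 259 FPKM in WT libraries and 290.0, 294 and 292 FPKM in KO libraries (0.18, limma adjusted p = 0.175), and it was called with quantile normalization (0.29, adjusted p = 0.0136). Cd5, a negative regulator that also marks B-1 cells, measured 3.48, 3.56 and 4.39 FPKM in WT libraries and 5.41, 5.04 and 5.41 FPKM in KO libraries (0.39, limma adjusted p = 0.118), and it was called without WT replicate 3 (0.48, adjusted p = 0.0371). Cd22, a sialic acid binding inhibitor of the BCR, stood at 41.6, 42 and 47.7 against 53.2, 52 and 56.9 FPKM (0.30, limma adjusted p = 0.493). In each of these 3 genes every KO library lay above every WT library. Ptpn6, the gene of Shp1, had a fold change of 0.17 and the Fc receptor-like gene Fcrl1 one of -0.13.

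Ptpn7 (chr1:135132700-135145317), which encodes a tyrosine phosphatase that acts on ERK and p38, was higher in KO cells. It measured 7.45, 8.24 and 7.85 FPKM in WT libraries and 12, 11 and 11.7 FPKM in KO libraries. The groups were well apart, with a KO mean 1.47-fold that of WT (log2 fold change 0.50, SE 0.06, limma adjusted p = 0.00955). The call was lost when WT replicate 1, KO replicate 1 or KO replicate 3 was left out (adjusted p = 0.0639, 0.0555 and 0.0578) and with the 6 h libraries alone (0.0664). At 1 h the libraries read 13.9, 13.9 and 14.7 FPKM in WT and 11.6, 13.8 and 13.4 FPKM in KO, a log2 fold change of -0.12. The difference between the times, 0.63, did not pass (limma adjusted p = 0.0913). It did with equally numbered libraries of a genotype paired across the times (adjusted p = 0.0398) and with no filter on the level (0.0488).

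Hvcn1 (chr5:122206804-122242297) encodes the voltage-gated proton channel that associates with the BCR and supports the oxidative burst. It measured 125, 152 and 141 FPKM in WT libraries and 183, 183 and 192 FPKM in KO libraries. Every KO library lay above the highest WT library, and the KO mean was 1.33-fold that of WT (log2 fold change 0.41, SE 0.06, limma adjusted p = 0.0221). The call ended without WT replicate 3 or any 1 of the KO replicates (adjusted p = 0.0556 to 0.102), without KO replicate 1 of 1 h (0.0523) and with the 6 h libraries alone (0.263). It was the called gene of 25 redox genes, of which Cybb, the catalytic subunit of the phagocyte NADPH oxidase, stood at -0.15 and the peroxiredoxin gene Prdx1 at -0.20, neither called. The stress-induced genes Hmox1 (20.2, 36.2 and 21.2 against 11, 12.4 and 13.4 FPKM, -0.97, limma adjusted p = 0.343) and Nqo1 (5.29, 5.56 and 4.02 against 2.86, 2.56 and 2.98 FPKM, -0.64, limma adjusted p = 0.293) did not pass.

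Cxcr4 (chr1:128588199-128592293), the receptor for the stromal chemokine CXCL12, was higher in KO cells while Ccr7 was lower. It measured 160.4, 189.8 and 166 FPKM in WT libraries and 291, 297 and 288 FPKM in KO libraries. The KO libraries were close together and all above WT, 1.7-fold on average (log2 fold change 0.76, SE 0.07, limma adjusted p = 0.000801). The call held in all 24 alternatives. At 1 h the libraries measured 474, 511 and 519.6 FPKM in WT and 858, 916 and 832 FPKM in KO, a log2 fold change of 0.79 (limma adjusted p = 0.000265). The other 21 tested homing and chemokine receptor genes were not called. Of the 23 in all, 4 were higher and 2 lower at an unadjusted p under 0.05 (limma, 4.21% and 3.34% of all genes), with the gut homing receptor gene Ccr9 at 0.46, the oxysterol receptor gene Gpr183 at 0.18 and the follicle receptor gene Cxcr5 at -0.14.

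Ctse (chr1:131638306-131675505), the gene of the endosomal aspartic protease cathepsin E, had the highest fold among the higher genes with a proper symbol. It measured 12.3, 10.6 and 7.01 FPKM in WT libraries and 46.3, 50.6 and 53.5 FPKM in KO libraries. The groups were far apart, with a KO mean 5.02-fold that of WT (log2 fold change 2.25, SE 0.33, limma adjusted p = 0.0235). The call nevertheless ended without each of the 6 libraries of 6 h in turn (adjusted p = 0.0679 to 0.122) and without KO replicate 1 of 1 h (0.0542), while it held with the 6 h libraries alone. In that fit the spread at 1 h, where the WT libraries read 51.2, 46.8 and 17.4 FPKM, did not enter.

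Of 17 genes of MHC class II presentation 0 were called, and 14 had a positive fold change, against 50.7% of all genes tested. At an unadjusted p under 0.05, 8 were higher and 0 lower (limma, 4.21% and 3.34% of all genes), and 5 had all KO libraries above all WT libraries, against 8.1% of all genes. The median was 0.194 at 6 h and 0.038 at 1 h. The mean log2(FPKM + 1) of the list was 6.345, 6.495 and 6.308 in the WT replicates and 6.491 to 6.598 in the KO replicates, and WT replicate 2 fell within the KO range. Ciita, the master regulator of these genes, measured 33.7, 37.7 and 36.5 FPKM in WT libraries and 50.3, 42.4 and 57.8 FPKM in KO libraries (log2 fold change 0.46, limma adjusted p = 0.258). The peptide editor gene H2-DMb2 stood at 83.8, 98.1 and 78.2 against 104, 102 and 110.0 FPKM (0.28), and H2-Eb2 at 60.6, 64.8 and 66.2 against 75.8, 70.3 and 77.7 FPKM (0.22). All 3 of these genes had non-overlapping libraries. So had H2-Oa, which encodes a chain of the inhibitor of peptide loading, at 22.9, 25.3 and 18.2 against 27, 27.5 and 30.6 FPKM (0.36), and the invariant chain gene Cd74 had a fold change of 0.08. The median ranged from 0.127 to 0.238 over the alternatives, and the number higher at an unadjusted p under 0.05 was 4 without WT replicate 1 or WT replicate 3 and 5 without KO replicate 3.

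Other lists of survival and activation held 1 called gene. Of 31 apoptosis and survival genes Pim1 was called lower, and the median was -0.054 (-0.064 to -0.027). By the unadjusted p of limma 5 of the 31 were lower and 1 higher (3.34% and 4.21% of all genes). The genotypes were fully separated with KO lower in 5 and with KO higher in 1, against 6.97% and 8.1% of all genes. The proapoptotic gene Pmaip1 measured 15.7, 18.3 and 16.2 FPKM in WT libraries and 14.3, 15 and 13.9 FPKM in KO libraries, and the survival gene Bcl2a1d measured 125, 107 and 111 against 99.8, 102 and 98.2 FPKM (-0.19, limma adjusted p = 0.493), a value that is uncertain because the gene has near-identical copies. Bcl2, which also protects from apoptosis, lay the other way at 6.9, 6.78 and 7.22 against 8.51, 8.94 and 9.06 FPKM (0.30, limma adjusted p = 0.402). None of these 3 was called, although the libraries of each did not overlap. Of 28 activation surface molecules 0 were called, 3 were lower and 0 higher at an unadjusted p under 0.05 (limma, 3.34% and 4.21% of all genes), and the sign of the median (-0.032) flipped without WT replicate 2 or KO replicate 1. The adhesion receptor gene Cd44 stood at 52.3, 54 and 50 against 43.3, 42 and 45.1 FPKM (-0.26, limma adjusted p = 0.106). Of 30 cytokine receptor, STAT and SOCS genes 0 were called, with 6 lower and 1 higher at an unadjusted p under 0.05 (limma, 3.34% and 4.21% of all genes), among them the interferon-gamma receptor gene Ifngr1 (30.9, 30.4 and 31.9 against 25, 26.8 and 28 FPKM, -0.22), the feedback inhibitor gene Socs3 (-0.26) and the transcription factor gene Stat5a (-0.15).

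Mcm6 (chr1:128331590-128359664), a subunit of the MCM2-7 helicase that opens DNA for replication, was lower in KO cells. It measured 58.2, 63.4 and 62 FPKM in WT libraries and 33.1, 33 and 32.7 FPKM in KO libraries. The KO libraries were nearly identical, at 53.8% of the WT mean (log2 fold change -0.87, SE 0.09, limma adjusted p = 0.00301), and the call held in all 24 alternatives. The other subunits of the same helicase lay near 0, with Mcm2 at 0.06, Mcm3 at 0.01, Mcm4 at 0.02, Mcm5 at -0.03 and Mcm7 at -0.04. Of the 26 replication licensing genes tested the other 25 were not called, and the median was -0.015 (-0.033 to 0.012).

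Lists of growth, stress and metabolism held 0 called genes. Of 42 genes of MYC and ribosome biogenesis 38 had a negative fold change, against 49.3% of all genes tested, 2 were lower by the unadjusted p of limma (3.34% of all genes) and the median was -0.079. The median was -0.034 without KO replicate 3 and -0.04 with quantile normalization. Myc itself, which drives growth in activated B cells, measured 195, 186 and 172 FPKM in WT libraries and 176, 178 and 165 FPKM in KO libraries, and these overlapped. The list mean was 6.448 to 6.517 in WT and 6.354 to 6.450 in KO, an overlap between WT replicate 3 and KO replicate 1. All 13 heat shock genes had a negative fold change (median -0.106, and -0.064 without KO replicate 3), with Hspa1b at -0.46 and Hsp90aa1 at -0.14 and 0 called (limma, 2 lower at an unadjusted p under 0.05). The cyclin gene Ccnd2 measured 33.7, 26.2 and 34 FPKM in WT libraries and 23.1, 23.8 and 25.5 FPKM in KO libraries at 6 h (-0.35, limma adjusted p = 0.431), and its fold change at 1 h was 0.35. Of 30 G1/S genes 0 were called by limma, 1 was lower by the unadjusted p (3.34% of all genes), and the median was -0.047 (-0.073 to -0.027). Medians were -0.048 (-0.089 to 0.001) for 22 glycolysis genes, -0.043 (-0.059 to -0.014) for 28 amino acid transport and tRNA charging genes, 0.026 (0.004 to 0.071) for 24 cholesterol synthesis genes and -0.002 (-0.077 to 0.030) for 29 ER stress genes, with 0 called in each. For 34 interferon stimulated genes, also with 0 called, the median of -0.051 rested on single libraries, being -0.332 without KO replicate 2 and 0.096 without KO replicate 1.

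Of the genes outside these pathways, Ide (chr19:37268743-37337852), the gene of the insulin-degrading metalloprotease, was lower in KO cells. It measured 134, 138 and 144 FPKM in WT libraries and 80.2, 77.1 and 74.3 FPKM in KO libraries. The groups were wide apart, at 55.5% of WT (log2 fold change -0.84, SE 0.05, limma adjusted p = 1.6e-05). At 1 h it measured 20.8, 19.7 and 19.4 against 10.6, 10.5 and 11.3 FPKM, again a log2 fold change of -0.84. Rnpep (chr1:135262712-135284084), which encodes aminopeptidase B, stood at 12.4, 12.1 and 10.9 against 4.84, 4.23 and 5 FPKM, or 39.7% of WT (-1.17, limma adjusted p = 0.000152). Neither call ended in any of the 24 alternatives.

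Fgfbp3 (chr19:36917550-36919615), the gene of a secreted protein that binds fibroblast growth factors, lies within 5 Mb of Ide. It measured 2.07, 2.56 and 1.95 FPKM in WT libraries and 0.938, 0.626 and 1 FPKM in KO libraries (log2 fold change -0.79, limma adjusted p = 0.0163). The KO libraries all lay below WT, but the call was lost when any of WT replicates 1 and 2 and KO replicates 1 and 2 was left out (adjusted p = 0.0683, 0.0582, 0.0555 and 0.074). Klhl12, an adaptor of a CUL3 ubiquitin ligase, stood at 18.4, 17.3 and 17 against 14.5, 13.2 and 14.2 FPKM (-0.31, limma adjusted p = 0.0171). Its groups did not overlap, and the call was lost when any of WT replicates 1 and 2 and KO replicates 2 and 3 was left out (adjusted p = 0.104, 0.0504, 0.101 and 0.0676). With the 6 h libraries alone neither gene was called (0.196 and 0.229).

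The remaining higher genes with a proper symbol changed by 1.5-fold or less. Ephx1, the gene of microsomal epoxide hydrolase, measured 101, 108 and 103 FPKM in WT libraries and 134, 142 and 136 FPKM in KO libraries (log2 fold change 0.39, limma adjusted p = 0.00812). It lost its call without WT replicate 1 (adjusted p = 0.0539) and with the 6 h libraries alone (0.0551). Lbh, a transcriptional cofactor gene, stood at 56.4, 59.7 and 58 against 68.7, 68.4 and 69.6 FPKM (0.24, limma adjusted p = 0.0171). It was not called without WT replicate 1, WT replicate 3 or any 1 of the KO replicates (adjusted p = 0.0538 to 0.113). In both genes the KO libraries were tightly grouped above WT.

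Ikbip, which encodes a protein that binds the IkB kinase, measured 2.4, 2.29 and 2.6 FPKM in WT libraries and 3.38, 3.76 and 3.8 FPKM in KO libraries (log2 fold change 0.44, limma adjusted p = 0.0308). Manea, the gene of a Golgi endomannosidase, stood at 18.7, 17.3 and 18.6 against 22.8, 23.7 and 24.1 FPKM (0.35, limma adjusted p = 0.0455). Csrp1, a LIM domain gene, stood at 10.5, 10.1 and 8.95 against 12.4, 14 and 13.5 FPKM (0.40, limma adjusted p = 0.0464). All 3 had KO libraries above all WT libraries and stood close to the threshold. Ikbip lost its call without WT replicates 1 or 2 or any 1 of the KO replicates (adjusted p = 0.0609 to 0.164), and Manea (0.0811 to 0.179) and Csrp1 (0.0655 to 0.193) without any 1 library of 6 h. Removal of a library of 1 h also ended these calls in 3, 4 and all 6 cases (adjusted p = 0.0555 to 0.0575, 0.0721 to 0.0904 and 0.0575 to 0.0812). With libraries of the same number and genotype treated as a pair across the times, Manea and Csrp1 were not called either (adjusted p = 0.0562 each).

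Several of the called genes lie close to Fcmr. Within 5 Mb of Fcmr on chromosome 1, 7 of 62 tested genes were called (11.3%), 4 higher (Csrp1, Ctse, Cxcr4 and Ptpn7) and 3 lower (Klhl12, Mcm6 and Rnpep). Between 5 and 20 Mb from Fcmr 0 of 42 were called, on the rest of the chromosome 3 of 598 (0.502%) and on other chromosomes 16 of 11119 (0.144%). At 1 h 10 of the 62 genes near Fcmr were called, against 46 of 11119 on other chromosomes and 62 of all 11841 genes (0.524%). The strain of origin of the targeted allele is not given in the sources used here, and an effect of linked sequence and an effect of Fcmr loss cannot be told apart for genes in this window. Pim1, Dusp5, Ccr7, Hvcn1, Ide and Fgfbp3 lie on other chromosomes. With the strain not given, a strain difference between the genotypes and an effect of Fcmr loss cannot be told apart for these genes either. Ide and Fgfbp3 lie within 5 Mb of each other on chromosome 19. They stood at 55.5% and 38.9% of WT at 6 h and at 53.8% and 24.6% at 1 h.

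Slc40a1 (chr1:45908068-45926523), which encodes ferroportin, the iron exporter of red pulp macrophages and other cells, was lower in KO cells. It measured 4.16, 4.92 and 3.73 FPKM in WT libraries and 1.23, 1.69 and 1.52 FPKM in KO libraries, and the groups did not overlap. The KO mean was 34.7% of WT (log2 fold change -1.09, SE 0.13, limma adjusted p = 0.00859), and the call ended with the 6 h libraries alone (0.0551). It is itself a macrophage marker. Of the other 21, 19 had a negative fold change, 11 were lower at an unadjusted p under 0.05 and 10 had all KO libraries below all WT libraries, against 49.3%, 3.34% and 6.97% of all genes. Their median was -0.361 and 0 of them were called. With Slc40a1 the median was -0.365, and it was -0.623 with a pseudocount of 0.1 and -0.694 with voom. The complement gene C1qc stood at 1.57, 1.55 and 1.18 against 0.553, 0.921 and 0.717 FPKM (-0.49), the adhesion gene Vcam1 had a fold change of -0.52, and the metal transporter gene Slc11a1 stood at 4.7, 5.59 and 4.68 against 2.57, 2.25 and 3.91 FPKM (-0.64, limma adjusted p = 0.118). Without KO replicate 3 Slc11a1 was called (-0.81, adjusted p = 0.00996). Among 15 iron handling genes 0 others were called, and the transferrin receptor gene Tfrc (0.04) and the ferritin gene Fth1 (-0.11) lay near 0. The part of macrophage content in the result for Slc40a1 was not tested.

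Lists of other cell types and of B cell subsets held 0 further calls except Ccr7, which is also a follicular marker. Medians were -0.244 over 18 T cell, -0.237 over 18 NK cell, -1.546 over 15 neutrophil and -0.442 over 16 erythroid genes. By the unadjusted p of limma 5, 1, 5 and 0 of them were lower and 2, 1, 0 and 0 higher. The shares over all genes were 3.34% lower and 4.21% higher. Genotypes were fully separated with KO lower in 4, 6, 4 and 0, and with KO higher in 1, 0, 0 and 0. Of all genes 6.97% and 8.1% were separated in these ways. These medians rested in part on single libraries: that of the erythroid list was -0.227 without WT replicate 1 and -0.821 without WT replicate 3, that of the neutrophil list -1.028 without WT replicate 1 and that of the NK cell list -0.113 without WT replicate 3. Without WT replicate 3, 14 of the 15 neutrophil markers were lower by the unadjusted p of limma. That library was the WT library with neutrophil markers at the KO level (23.1 FPKM summed, 19.4 to 54.3 in KO), so its removal favours this count. In that fit 1522 of the 11841 genes had an unadjusted p under 0.05 in either direction, against 894 with all libraries. With voom the T cell median was -0.442. T cell markers summed to 112 to 116 FPKM in WT and 102 to 126 FPKM in KO, and NK cell markers to 106 to 151 and 96.9 to 99.3 FPKM. Marginal zone markers had a median of -0.080 over 22 genes at 6 h and of -0.371 at 1 h, with summed levels of 626 to 651 FPKM in WT and 535 to 594 FPKM in KO at 6 h. Of the 22, 16 had a negative and 6 a positive fold change, against 49.3% and 50.7% of all genes. By the unadjusted p of limma 4 were lower and 1 higher. The scavenger receptor gene Cd36 stood at 13.1, 10.3 and 12.4 against 7.11, 6.25 and 8.65 FPKM (-0.64, limma adjusted p = 0.0573). Marco, which is also in the macrophage list, had a fold change of -0.55. Other members lay the other way, such as Zc3h12c at 0.24 and Cr2 at 0.16. Leaving out WT replicate 2 made Cd36 a called gene (-0.73, adjusted p = 0.0446), as did leaving out KO replicate 3 (-0.75, adjusted p = 0.0375). The median was 0.074 (0.029 to 0.098) for 15 B-1 cell markers, 0.050 (-0.027 to 0.103) for 18 plasma cell markers, 0.026 (-0.064 to 0.142) for 9 transitional markers, -0.082 (-0.201 to 0.002) for 15 germinal center markers and 0.096 (0.068 to 0.128) for 16 pan-B cell markers. Their part in the results above was not tested.

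The 4 V segments called were all higher in KO cells, namely Igkv5-39 (log2 fold change 4.53), Ighv11-2 (2.99), Ighv5-6 (1.22) and Iglv2 (1.09). Their levels depend on the antibody genes that the sampled cells had rearranged. Reads of near-identical segments can be split between them, so each value is uncertain. The calls of Ighv5-6 (without WT replicate 2 or KO replicate 3, limma adjusted p = 0.0504 and 0.0578) and Iglv2 (without any 1 library of 6 h, 0.0741 to 0.165) ended, and with the 6 h libraries alone those of Igkv5-39 (0.0551) and Ighv11-2 (0.159) ended too. The predicted gene Gm47283, which lies on chromosome Y (chrY:90784738-90816464), was lower, at 53.4% of WT, and kept its call in all 24 alternatives. The pseudogene Gm14086 was higher, at 0.522 ± 0.0389 FPKM in WT and 2.16 ± 0.639 FPKM in KO (SD, n = 3 each). These values rest on 2 fragments in each WT library and 6 to 10 in the KO libraries, so the small SD in WT is not a measure of precision. Its call ended without any 1 of the WT replicates or without KO replicate 2 or 3 (limma adjusted p = 0.0829 to 0.152). The predicted genes Gm39321 (3.28 ± 0.161 against 4.91 ± 0.57 FPKM) and E330020D12Rik (68.9 ± 1.79 against 89.9 ± 1.5 FPKM) were also higher. Gm39321 lost its call without any 1 of the WT replicates or without KO replicate 2 or 3 (limma adjusted p = 0.06 to 0.155). E330020D12Rik lost it without any 1 library of 6 h (0.0665 to 0.147).

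The 10 genes that came closest to the threshold without passing had adjusted p from 0.0573 to 0.0831 (limma). Cd36 was first among them. Ndrg1, a stress-responsive gene, measured 3.58, 3.95 and 3.52 FPKM in WT libraries and 6.36, 5.55 and 7.22 FPKM in KO libraries (log2 fold change 0.65), and the pseudokinase gene Trib2 measured 25.3, 30.7 and 26.2 against 38.7, 35.4 and 36.4 FPKM (0.42). Both had KO libraries above every WT library. The others were Actn1 (0.65), Rab6b (0.51), Wls (0.50), Slc41a1 (0.37) and Tceanc (0.22), and Snora21 (-0.71) and Tbkbp1 (-0.55). Leaving out a library of 6 h turned Trib2 (without WT replicate 2, 0.50, adjusted p = 0.0275), Snora21 (without KO replicate 3, -0.83, 0.0434) and Actn1 (without KO replicate 1, 0.79, 0.018) into called genes. Leaving out a library of 1 h did so for Ndrg1 (0.045 without KO replicate 2), Rab6b (0.0381 without KO replicate 3) and Tceanc (0.0474 without WT replicate 1).

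The genotypes were also compared at 1 h, where 62 genes were called (0.524%), 10 higher (0.0845%) and 52 lower (0.439%) in KO cells. Of the 27 genes called at 6 h, 14 were called at 1 h, with the same sign, and 25 had the same sign at 1 h. The share of all genes with the same sign at both times was not counted. Equally numbered libraries of a genotype correlated between the times, so the values of 1 h are not an independent repeat. The test of the difference between the times called 3 of the 11841 genes (0.0253%), and 0 of them were among the 27. With a pseudocount of 0.1 or with voom it called 0. With numbered libraries paired across the times within a genotype it called 5, the added ones being Ptpn7 (adjusted p = 0.0398), which is one of the 27, and Tsga13 (adjusted p = 0.0377). At an unadjusted p under 0.05, 13 of the 27 differed between the times, against 4.54% of all genes, though the 27 were selected for their value at 6 h. Pim1 measured 129, 143 and 141 FPKM in WT libraries and 123, 116 and 109 FPKM in KO libraries at 1 h, a log2 fold change of -0.25 (limma adjusted p = 0.14) against -0.60 at 6 h. The difference was -0.35 (SE 0.09, limma adjusted p = 0.69, and 0.384 with the libraries paired). Hvcn1 stood at 312, 307 and 317 against 323, 325 and 327 FPKM at 1 h, and its fold changes of 0.06 at 1 h and 0.41 at 6 h gave a difference of 0.35 (limma adjusted p = 0.63, paired 0.285). Ikbip had a fold change of -0.06 at 1 h and 0.44 at 6 h (difference 0.50, limma adjusted p = 0.367, paired 0.144). In the main fit no difference between the times passed for any of the 27 genes. That of Ptpn7 passed in the paired fit and with no filter (limma adjusted p = 0.0488). The other calls that stood at 6 h alone are thus not shown to be particular to 6 h. For Klhl12 the fold change was -0.56 at 1 h and -0.31 at 6 h (difference 0.24, limma adjusted p = 0.705, paired 0.304).

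**Figure D5:**
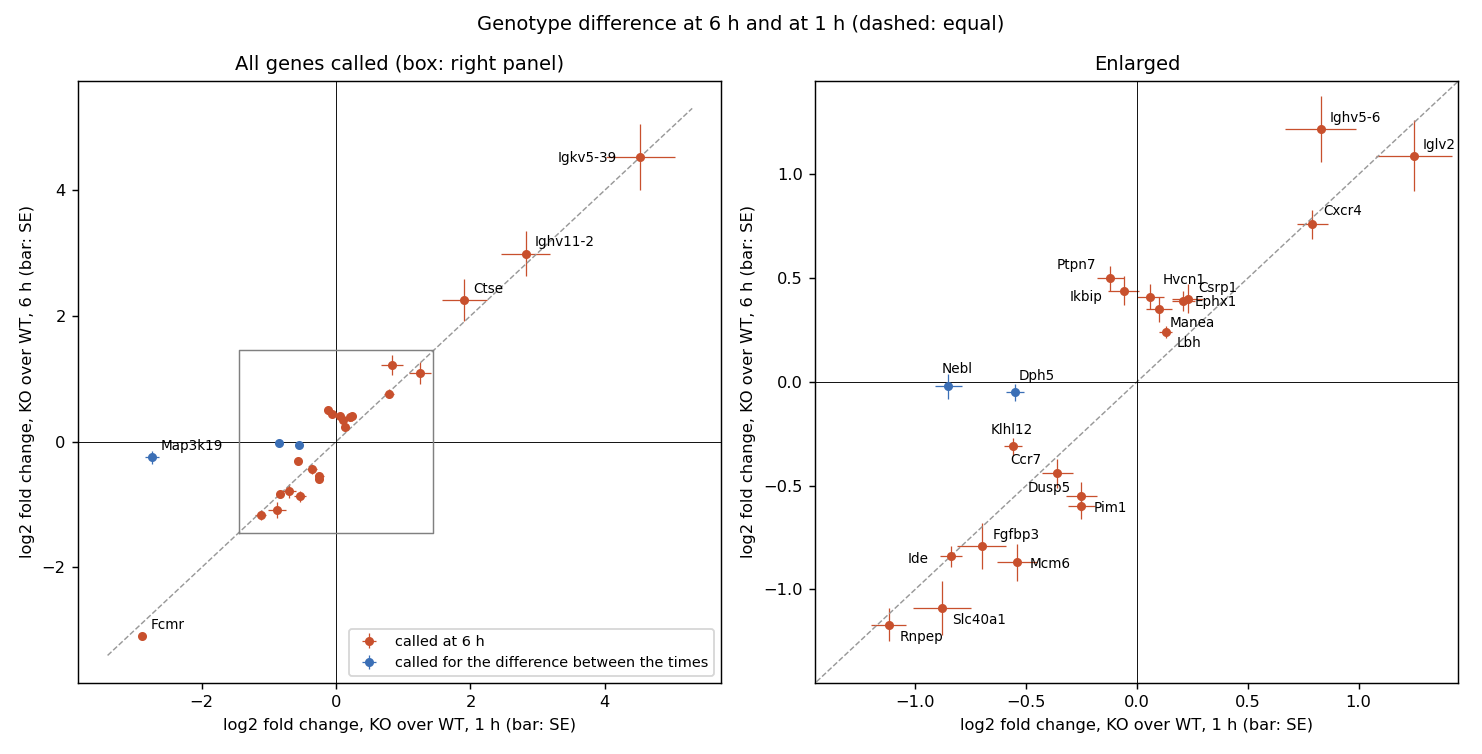
Log2 fold change of KO over WT at 6 h against that at 1 h with SE bars for the called genes of 6 h and the genes called for the difference between the times (blue), with the crowded centre enlarged on the right. Rnpep, Ide and Cxcr4 lie close to equal values at both times, while Ptpn7, Hvcn1 and Ikbip lie near 0 at 1 h and above it at 6 h.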

How the data were processed

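Poly-A RNA of stimulated B cells was sequenced in 12 libraries, and the authors deposited FPKM values, with 1 column for each library and 55487 genes. STAR, HTSeq and mm10 are named without versions, per the submitters' processing notes. The gene annotation, the gene lengths and whether counting used strand are not given in the sources used here, so overlapping genes cannot be told apart. All 12 columns were used. Symbols and positions came from GENCODE vM21.

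On the log2(FPKM + 1) scale, limma 3.58.1 (R 4.3.3) was fitted with the 4 group means and a variance trend. Tests were two-sided, with Benjamini-Hochberg adjustment across the 11841 genes that averaged 1 FPKM or more. Genes were called at an adjusted p under 0.05. A pseudocount of 1 understates the change of low genes. Log2 fold changes are KO over WT, and the difference between the times is the value at 6 h minus that at 1 h. Fcmr was also compared by an exact permutation test (scipy 1.17.1). Fits were tested on simulated data.

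At an annotated transcript length 99.01% of tested genes gave whole fragments (tolerance 0.001), and 99.98% did at any length. The library totals found this way are the depth, and intervals of 3 fragments cover counting error only. A count model (voom) on these fragments, which called 28 genes, was an alternative, beside other pseudocounts, filters, scalings, blocks and each library left out.

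Deviations from the group means of equally numbered libraries correlated between the times (0.338 to 0.547 for WT, 0.365 to 0.476 for KO, other numbers -0.368 to 0.017), so numbers pair the times within a genotype. Members, tests, the 40 gene lists (851 genes) and the rule for named genes were chosen with earlier results of these data known. Named were every called gene with a proper symbol, the 10 that just missed, up to 5 members of each list by p, and the genes called for the difference between the times. Mcm2 to Mcm7, kinase and NF-kB subunit genes, Cd79a, S100a8, Dusp family members, Tnfaip3, Malt1, Cd74, stromal genes at 0, Tsga13, the pseudogene, predicted genes, Myc, Ccnd2, Tfrc, Fth1 and V segments were named after their values were seen. Lists were described by counts and medians, without a set test. Promoter windows came from RefSeq (GRCm38.p6), where 8453 of the tested genes matched.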

Additional observations from a re-analysis of the deposited data

Results flagged for a closer look

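The limma test of the difference between the times called 3 genes in the main fit, but 0 with a pseudocount of 0.1 or with voom. Map3k19, the gene of a MAP kinase kinase kinase, had a log2 fold change of -0.25 at 6 h and -2.74 at 1 h, a difference of 2.49 (adjusted p = 3.3e-05). At 6 h it stood at 0.299, 0.221 and 0.109 FPKM in WT and at 0.00778, 0 and 0.034 FPKM in KO, so the KO libraries were below the level of 3 fragments on a transcript of 2 kb. In WT it measured 5.82, 7.06 and 5.95 FPKM at 1 h, and only through these libraries did it reach a mean of 1 FPKM. With levels this far below the pseudocount of 1, its fold change at 6 h was held near 0 although the KO mean was 6.65% of WT, and the difference had an adjusted p of 0.0923 with a pseudocount of 0.1 and of 1 with voom. The size of the difference thus depends on the pseudocount. Nebl, the gene of the actin-binding protein nebulette, stood at 0.36, 0.354 and 0.281 FPKM in WT and 0.288, 0.296 and 0.346 FPKM in KO at 6 h (-0.02), against -0.85 at 1 h, a difference of 0.82 (adjusted p = 0.0074). Dph5, an enzyme gene of diphthamide synthesis, stood at 44.2, 45.8 and 46.5 against 44.1, 45.1 and 42.2 FPKM at 6 h (-0.05) and at 31.9, 29.7 and 29.7 against 20, 20 and 21.3 FPKM at 1 h (-0.55), a difference of 0.50 (adjusted p = 0.0359). Nebl also lay below the pseudocount in every library of 6 h, and it too reached a mean of 1 FPKM only through libraries of 1 h. With a pseudocount of 0.1 or voom neither Nebl (adjusted p = 0.373 and 0.219) nor Dph5 (0.0923 and 0.0695) was called.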

How the results depend on the processing

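The count of 27 genes at 6 h was 10 with the 6 h libraries fitted alone (4 higher and 6 lower), 64 without both WT libraries numbered 3 (20 higher and 44 lower, 22 of the 27 kept) and 12 to 30 with 1 library left out. Without a single library of 6 h it was 12 (WT replicate 1), 17 (WT replicate 2), 27 (WT replicate 3, with 17 of the 27 kept), 16 (KO replicate 1), 14 (KO replicate 2) and 15 (KO replicate 3), and without KO replicate 1 of 1 h it was 18. Under the other pseudocounts, filters, scalings, blocks and voom it was 25 to 39. Leaving out libraries of 1 h was chosen after seeing the data. The 3 genes of the difference between the times became 0 with a pseudocount of 0.1 (530 at an unadjusted p under 0.05, limma), 0 at a filter of 5 FPKM (347), 0 with voom (497), 21 with no filter, 1 with the replicate block across genotypes, 5 with the block within genotype, 1 without both WT libraries numbered 3, and 1 to 3 with 1 library left out. Equally numbered libraries of the 2 genotypes, at -0.075 to 0.01 for 6 h, share a number and are not paired. With the replicate block across genotypes 25 genes were called at 6 h and 6 of the 27 were lost, namely Fgfbp3, Ikbip, Ccr7, Manea, Csrp1 and E330020D12Rik (adjusted p = 0.0506, 0.0506, 0.0731, 0.0659, 0.0684 and 0.0637, limma). None of the 27 genes changed sign. The medians of 15 of the 40 lists did in at least 1 alternative, among them that of platelet markers (-0.245, and 0.050 at a filter of 5 FPKM) and of interferon stimulated genes. Of the called genes 7 kept their call in every alternative: Fcmr, Ide, Rnpep, Cxcr4, Mcm6, Pim1 and Gm47283. For a transcript of 2 kb depth limits the genes near 0.0623 to 0.0725 FPKM, the level of 3 fragments at 6 h. For shorter transcripts that level is higher, as for Gm14086, where 2 fragments in each WT library gave 0.481 to 0.559 FPKM.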
